A study of Mus musculus with 15 samples.

Results

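Interleukin 4 (IL-4) is the cytokine that turns cultured macrophages to the state called alternative activation. It binds a receptor built of Il4ra with Il2rg or Il13ra1, whose Janus kinases phosphorylate STAT6, and STAT6 in the nucleus raises genes of arginine use, chitinase-like and resistin-like proteins, lectins, chemokines and cell fusion. In macrophages the same signal is known to work with PPARγ, IRF4, EGR2 and Klf4, and to hold back parts of the inflammatory program driven by NF-κB and the interferons. The comparison took the 3 libraries of bone marrow derived macrophages given IL-4 and the 3 of untreated ones, 6 of the 15 libraries in the series, and every gene with enough counts was described: 11883 of 25700.

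The macrophages were grown from the femoral and tibial marrow of mice aged 8 to 10 weeks, with strain and sex not given. All groups had the same 7 days in recombinant mouse M-CSF at 10 ng/ml. The groups used here were IL-4 at 10 ng/ml, which the labels term M2, IFN-γ at the same 10 ng/ml, which they term M1, heme-albumin at 200 and 400 µM, in which human serum albumin carries hemin and which the labels liken to macrophages that have eaten red cells, and untreated controls. The 200 µM dose entered the fit and the figures but no comparison. How long each treatment lasted is not given in the labels. The labels do not say whether the libraries of a group were separate animals or cultures. The p-values measure only the spread of the 15 libraries fitted together, those of IFN-γ and heme-albumin included. Part of that spread may be technical. In such bulk cultures, fewer cells of a type and less RNA per cell cannot be told apart.

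Totals were 15945686, 18384506 and 28587416 counts in IL-4 libraries 1 to 3, against 13937722, 15252357 and 8427352 in controls 1 to 3. The first principal component of these 6 libraries held 85.1% of the variance and separated IL-4 from control, and the second held 6.27%. The column names carry 3 dates, 1 per replicate number, which pairs the samples by number. Same-numbered IL-4 and control libraries deviated together from their group means (correlations of 0.370, 0.380 and 0.224). IFN-γ library 3 and heme-albumin 400 library 2 stood apart from the other libraries of their groups (a chi-square over its degrees of freedom of 130.4 and 134.8 for the first against 44.7 between the other two of its group, and of 49.0 and 62.4 for the second against 10.8). Heme-albumin 200 library 2 stood apart less far, at 22.7 and 36.0 against 8.52 between the other two of its group.

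Levels are CPM, counts relative to a library's total, ± SD with n = 3 libraries per group, and changes are log2 fold changes, IL-4 minus control, ± SE. A gene is said to have risen or fallen where edgeR's quasi-likelihood test, fitted to all 15 libraries, gave a Benjamini-Hochberg adjusted p under 0.05 over all genes. Every adjusted p below is of that test unless another setting is named. The test had no term for the replicate number, so it left the pairing of the samples out, and a replicate block was an alternative setting. For each gene named as risen or fallen against control, Zbtb46 and Cd209a aside, the 3 IL-4 values and the 3 control values did not overlap. A gene with no count in a group has a lower bound set at 3 counts over that group, and one with 1 to 3 counts is given by the ratio of counts per total, with a 95% counting interval. Such bounds and intervals cover counting error only.

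With IL-4, 1766 genes rose, 14.9% of those tested, and 1424 fell, 12.0%. By at least 2-fold, 707 rose (5.95%) and 619 fell (5.21%). In the 3 date pairs, the 1766 genes that rose were higher in IL-4 in 3 of 3, and 1420 of the 1424 that fell were lower in 3 of 3. As 1759 of the rises and 1412 of the falls had groups that did not overlap, this agreement was largely fixed beforehand. Whatever the test said, the 3 IL-4 libraries lay above the 3 controls for 3366 genes (28.3%) and below them for 3170 (26.7%). Of the genes that rose to at least 1 CPM with IL-4, 24 had no count in any control. Of those that fell from at least 1 CPM in controls, 0 were without a count in all 3 IL-4 libraries. Each IL-4 library held more counts in total than any control, so a gene is less easily left without a count there. A fit of the 6 libraries alone called 2634 higher and 2515 lower, 3303 and 3249 with the replicate number as a block, and without IFN-γ library 3 and heme-albumin 400 library 2 the counts were 2398 and 2188. Without heme-albumin 200 library 2 as well they were 2504 and 2296, and no count of a gene list then moved by more than 2 genes from that without the pair. Every count of a list against control is to be read against the 14.9% and 12.0% of all genes that rose and fell. Where the other settings moved the count of a list named below by at least 2 genes and by over 1.5 times, their counts stand beside it, to be read against how many of all genes the same setting called. A setting with another filter or fewer libraries could also test a different number of a list's members.

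**Figure D1:**
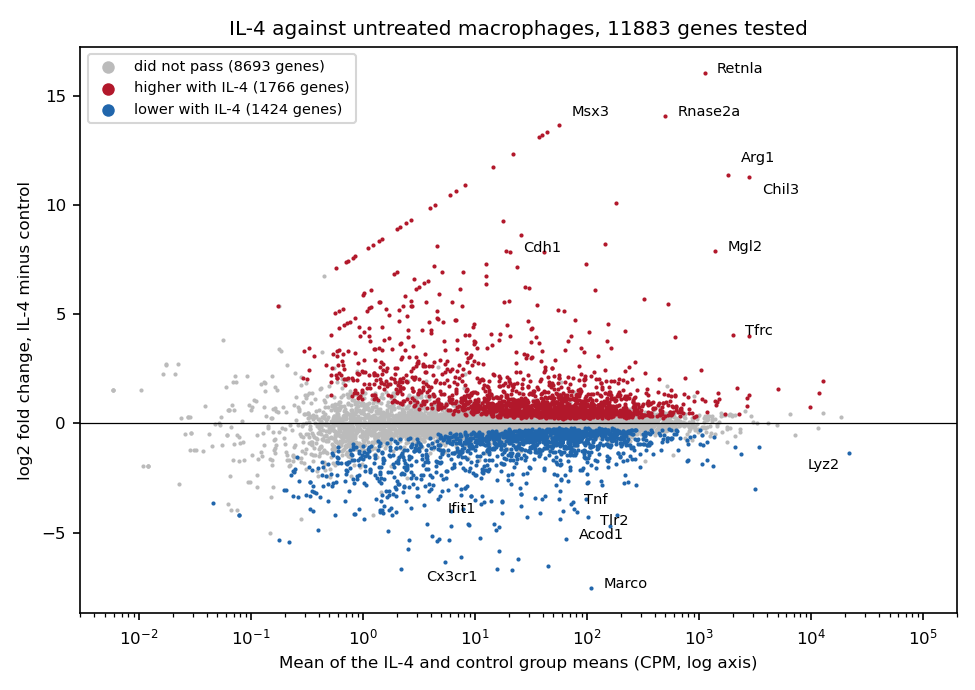
Each point is 1 of 11883 genes, with the mean of the IL-4 and control levels (CPM, log axis) against the log2 fold change, IL-4 minus control. Red points (1766 genes) were higher with IL-4, blue points (1424 genes) lower, both at an adjusted p under 0.05, and grey points (8693 genes) did not pass. The points on a rising diagonal at the upper left are genes with no count in the controls, whose fitted value depends on the prior count. The labelled genes include the markers Retnla, Arg1 and Chil3 at the top and Marco, with the largest fall (-7.52), at the bottom.

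The 3 markers that define an IL-4 macrophage in mice were close to absent in controls and abundant with IL-4. Arg1 encodes arginase 1, which splits arginine into ornithine and urea (ENSMUSG00000019987, GRCm38 chr10:24915221-24927484). It stood at 4124, 3747 and 3002 CPM in the 3 IL-4 libraries, against 2.58, 0.852 and 0.831 CPM in the 3 controls, and rose by 11.37 ± 0.61 on the log2 scale (adjusted p = 6.77e-08). The highest control held less than a thousandth of the lowest IL-4 library. Retnla, the secreted resistin-like molecule alpha (ENSMUSG00000061100, chr16:48842551-48844461), stood at 2943, 1385 and 2377 CPM in the 3 IL-4 libraries, against 0, 0.0656 and 0 CPM in the 3 controls. The 3 controls held 1 count between them, in control 2, so the IL-4 to control ratio of counts was 83910 (95% counting interval 15060 to 3314000), and its adjusted p was 6.74e-05. Chil3, the chitinase-like lectin also called Ym1 (ENSMUSG00000040809, chr3:106147554-106167564), stood at 7543, 3267 and 6019 CPM in the 3 IL-4 libraries, against 4.95, 1.31 and 0.712 CPM in the 3 controls, and rose by 11.28 ± 1.14 on the log2 scale (adjusted p = 9.33e-06). IL-4 library 2 was the lowest of the 3 for Retnla and for Chil3, and IL-4 library 3 the lowest for Arg1. Chil4, a near-identical neighbour of Chil3 on chromosome 3, had 93.6, 67.3 and 77.1 CPM with IL-4 and no count in controls, at least 984-fold higher. Reads of Chil3 and Chil4 cannot be told apart with certainty.

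The starts of Retnla, Chil3, Pdcd1lg2 and Clec7a are shown because each of these IL-4 genes holds a palindrome of the kind STAT factors bind, TTC and GAA with 4 bases between (TTCNNNNGAA, the spacing known for STAT6) or 3 (TTCNNNGAA). Each window runs from 250 bases before to 50 after the RefSeq start (GRCm38.p6, 5′ to 3′ on the gene's strand), with the palindrome in capitals. Retnla is on the plus strand at chr16:48842359-48842658 with its palindrome starting 145 bases before the start, Pdcd1lg2 on the plus strand at chr19:29410669-29410968 (82 before), Clec7a on the minus strand at chr6:129472730-129473029 (131 before) and Chil3 on the minus strand at chr3:106167515-106167814 (172 before). Another RefSeq window of Clec7a, chr6:129472736-129473035, not printed, has the same palindrome 125 bases before its start.
Retnla: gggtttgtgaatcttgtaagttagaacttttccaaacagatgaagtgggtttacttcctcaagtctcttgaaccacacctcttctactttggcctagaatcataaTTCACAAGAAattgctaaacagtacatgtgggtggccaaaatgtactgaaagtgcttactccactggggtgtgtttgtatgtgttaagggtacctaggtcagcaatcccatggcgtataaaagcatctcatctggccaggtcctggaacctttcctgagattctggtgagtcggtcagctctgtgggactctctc
Pdcd1lg2: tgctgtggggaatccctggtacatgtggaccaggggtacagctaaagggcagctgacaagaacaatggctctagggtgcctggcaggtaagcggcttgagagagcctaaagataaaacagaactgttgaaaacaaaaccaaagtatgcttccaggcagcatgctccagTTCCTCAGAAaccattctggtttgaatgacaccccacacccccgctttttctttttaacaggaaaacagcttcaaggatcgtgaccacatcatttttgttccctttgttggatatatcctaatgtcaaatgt
Clec7a: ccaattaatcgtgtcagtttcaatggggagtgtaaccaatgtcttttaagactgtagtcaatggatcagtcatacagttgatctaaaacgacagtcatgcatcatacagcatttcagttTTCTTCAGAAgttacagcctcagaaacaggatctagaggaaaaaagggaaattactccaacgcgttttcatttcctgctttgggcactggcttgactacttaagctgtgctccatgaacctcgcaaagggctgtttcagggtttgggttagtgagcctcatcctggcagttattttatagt
Chil3: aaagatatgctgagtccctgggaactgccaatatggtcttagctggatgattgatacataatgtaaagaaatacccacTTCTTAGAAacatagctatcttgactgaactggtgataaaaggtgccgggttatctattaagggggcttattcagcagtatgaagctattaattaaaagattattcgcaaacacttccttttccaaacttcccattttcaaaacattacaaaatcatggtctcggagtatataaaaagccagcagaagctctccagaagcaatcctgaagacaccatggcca

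Such palindromes, in which only TTC and GAA read the same on both strands and the bases between are free, are short and common. TTCNNNNGAA was found in 8.01% of the promoters of 27025 genes, in 6.66% of those of tested genes, in 7.70% of those of genes that rose and in 9.56% of those of genes that rose by at least 2-fold. Among the 24 alternative activation markers with a promoter in the RefSeq table, 7 (29.2%) held it: Ccl17, which had too few counts to be tested, Cd36, Clec7a, Il1rn, Itgax, Pdcd1lg2 and Retnla. Of the 22 type I interferon response genes with a promoter, 6 (27.3%) held it as well. For genes that fell, the share with TTCNNNNGAA was 6.21%, and 6.99% for those that fell by at least 2-fold. TTCNNNGAA was in 9.55% of the promoters of all genes and in 7.17% of those of genes that rose by at least 2-fold. It was in 9.32% of those of genes that fell by at least 2-fold. Among the markers 3 of 24 (12.5%) held TTCNNNGAA, and among the type I interferon response genes 4 of 22 (18.2%). A match describes the letters and is not a binding site.

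**Figure D2:**
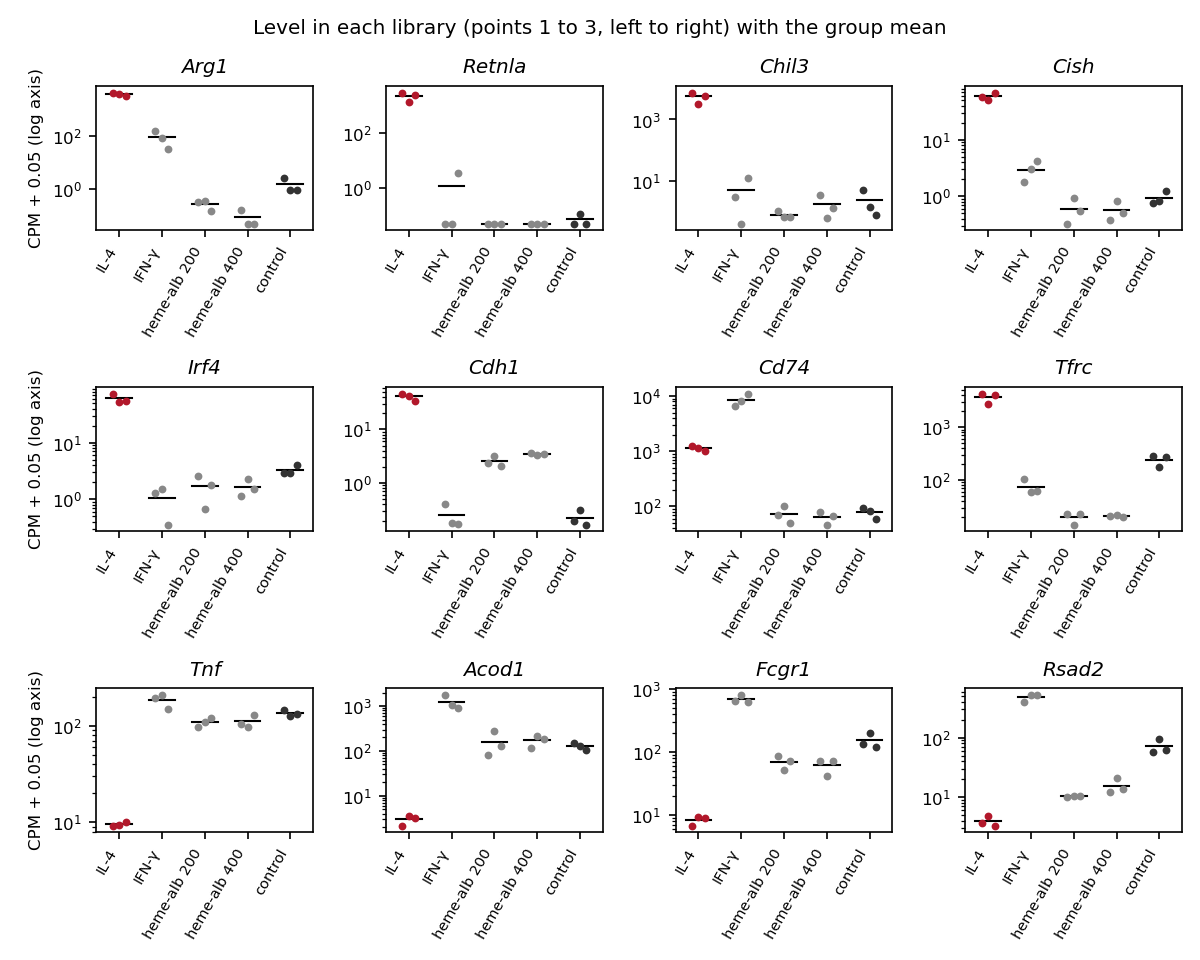
Levels (CPM + 0.05, log axis) of 12 genes in all 15 libraries, 3 points per group with the group mean as a line, for IL-4, IFN-γ, heme-albumin 200 and 400 µM, and control. In the 3 IL-4 libraries Arg1, Retnla, Chil3, Cish, Irf4, Cdh1, Cd74 and Tfrc lie above the 3 controls, and Tnf, Acod1, Fcgr1 and Rsad2 lie below them.

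All 3 receptor chains fell, while most genes downstream of them moved by small amounts. Of the receptor and JAK-STAT genes, 4 of 15 tested members rose and 4 fell, against 14.9% and 12.0% of all genes, with a median log2 fold change of 0.01 against 0.00 for all tested genes. Rises and falls numbered 5 and 7 with the 6 libraries alone, 6 and 7 with the 6 libraries and the replicate block, 2 and 4 without IL-4 library 3 or control library 1, 2 and 5 without control library 2 and 2 and 3 without control library 3. Il4ra, the chain that binds IL-4, stood at 56.5, 55.8 and 72.5 CPM with IL-4, against 97.4, 89.0 and 128 CPM in controls, and fell by 0.65 ± 0.15 on the log2 scale (adjusted p = 0.0066). Il13ra1, its partner in the receptor shared with IL-13, fell furthest, with 2.57, 3.10 and 2.76 CPM with IL-4, against 13.3, 16.0 and 11.0 CPM in controls (log2 fold change -2.15 ± 0.19, adjusted p = 3.93e-06). The common gamma chain Il2rg also fell (log2 fold change -0.69 ± 0.13, adjusted p = 0.0018). Irs2, the insulin receptor substrate that docks on the IL-4 receptor, rose, with 30.6, 32.6 and 30.5 CPM with IL-4, against 8.90, 8.52 and 10.9 CPM in controls (log2 fold change 1.85 ± 0.23, adjusted p = 5.65e-05), as did the kinase Jak2 (1.10 ± 0.17, adjusted p = 0.000335). Smaller calls were the rises of the PI3-kinase subunit Pik3cd (log2 fold change 0.46 ± 0.16, adjusted p = 0.0427, but adjusted p = 0.0778 to 0.166 when any 1 of the 6 libraries was left out and 0.0544 with the replicate block) and of Stat5a (0.44 ± 0.12, adjusted p = 0.0162, but adjusted p = 0.0543 without IL-4 library 3, 0.0579 without control library 1, 0.0514 without control library 2 and 0.0651 without control library 3), and the fall of the inositol phosphatase Inpp5d (-0.37 ± 0.11, adjusted p = 0.02, but adjusted p = 0.0813 without IL-4 library 1, 0.0609 without IL-4 library 2 and 0.0632 without control library 3). The signal carrier itself, Stat6, averaged 270.4 ± 6.35 CPM with IL-4 and 351 ± 14.3 CPM in controls (log2 fold change -0.26 ± 0.11, adjusted p = 0.0848, and 0.00837 in the fit of the 6 libraries alone). The other members did not pass, with log2 fold changes of 0.29 for the kinase Tyk2, 0.24 for Jak1, 0.02 for Stat3, 0.01 for Stat5b, -0.26 for the PI3-kinase subunit Pik3r1 and -0.30 for Jak3. In the fit of the 6 libraries alone Jak1 and Jak3 passed too (adjusted p = 0.0276 and 0.0393).

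Inhibitors that cytokine receptors switch on against themselves included some large rises. Of the feedback inhibitors, 6 of 17 tested members rose and 3 fell (median -0.04). Rises and falls numbered 6 and 7 with the 6 libraries and the replicate block and 5 to 6 and 1 when any 1 of the 6 libraries was left out. Cish, a SOCS-family inhibitor and textbook STAT5 target, stood at 57.3, 51.7 and 68.8 CPM in the 3 IL-4 libraries, against 0.718, 0.787 and 1.19 CPM in the 3 controls (log2 fold change 6.20 ± 0.38, adjusted p = 1.23e-07). Socs1, which blocks Janus kinases, stood at 24.2, 40.9 and 40.1 CPM with IL-4, against 0.789, 0.787 and 0.831 CPM in controls (log2 fold change 5.56 ± 0.46, adjusted p = 2.02e-06). Socs2 had 5.21, 3.15 and 3.74 CPM with IL-4 and no count in controls, at least 49.4-fold higher. The IL-4 and control libraries were far apart in all 3 of these inhibitors. Socs6 (log2 fold change 1.48 ± 0.13) and the phosphatase Ptpn1 (0.84 ± 0.16) rose less, Socs3 did not pass (0.49 ± 0.42, adjusted p = 0.425), and the phosphatase Ptpn6 fell (-1.01 ± 0.17, adjusted p = 0.000625).

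Of the transcription factors tied to alternative activation, 13 of 28 tested members rose and 4 fell (median 0.99). The counts were 20 and 5 with the 6 libraries alone and 20 and 7 with the 6 libraries and the replicate block. Egr2, a zinc-finger factor that STAT6 induces, stood at 159.6, 121 and 164 CPM with IL-4, against 5.88, 5.77 and 6.29 CPM in controls (log2 fold change 4.75 ± 0.57, adjusted p = 4.47e-05). Irf4, the interferon regulatory factor of this program, stood at 74.1, 53.4 and 55.6 CPM with IL-4, against 2.80, 2.88 and 3.92 CPM in controls (log2 fold change 4.39 ± 0.38, adjusted p = 2.74e-06). Bhlhe40, a basic helix-loop-helix repressor, stood at 298, 278 and 299 CPM with IL-4, against 13.9, 13.2 and 13.5 CPM in controls (log2 fold change 4.54 ± 0.32, adjusted p = 5.12e-07). In each of the 3, the lowest IL-4 library was several times the highest control. The AP-1 family member Batf3 (log2 fold change 4.06 ± 0.28), the Krüppel-like factor Klf4 (3.43 ± 0.32) and the lipid sensor Pparg (2.34 ± 0.24) rose by more than 4-fold. The PPAR coactivator Ppargc1b (log2 fold change 1.97 ± 0.27), Cebpa (1.79 ± 0.29), the stress factor Atf3 (1.54 ± 0.30), Tfec (1.29 ± 0.19), Jun (1.17 ± 0.16) and the histone demethylase Kdm6b (1.03 ± 0.24) rose less. The clock-linked repressor Bhlhe41 (log2 fold change -1.46 ± 0.31), the repressor Bcl6 (-0.73 ± 0.14) and the hypoxia factor Hif1a (-0.52 ± 0.12) fell. Maf fell as well (log2 fold change -1.22 ± 0.35, adjusted p = 0.0189, but adjusted p = 0.0709 without IL-4 library 1 and 0.0506 without IL-4 library 3). The log2 fold changes of those that did not pass ran from 1.26 for the oxysterol receptor Nr1h3 to -0.77 for the orphan receptor Nr4a1, with Myc (0.95), Cebpb (0.74), Arid5a (0.57), Batf (0.56), Rxra (0.51), Spi1 (0.35), Prdm1 (-0.17), Fos (-0.36) and Klf2 (-0.53) between them. Rxra passed with the replicate block over 15 libraries (adjusted p = 0.0122). With the 6 libraries alone Nr1h3, Nr4a1, Myc, Cebpb, Arid5a, Batf, Rxra and Spi1 passed, and Fos and Klf2 did once the block was added.

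Of 37 tested alternative activation markers, 31 rose and 2 fell, against 14.9% and 12.0% of all genes, with a median log2 fold change of 3.75. Without IL-4 library 2 the counts were 28 and 0. The list was drawn up with earlier results of these data known, so its count is a description. Mgl2, a galactose-binding lectin of the macrophage surface, stood at 2591, 3123 and 2578 CPM in the 3 IL-4 libraries, against 11.3, 15.4 and 10.9 CPM in the 3 controls (log2 fold change 7.89 ± 0.50, adjusted p = 1.96e-07). Its neighbour on chromosome 11, Clec10a, rose by 3.44 ± 0.33 on the log2 scale (adjusted p = 6.90e-06). Clec7a, the beta-glucan receptor Dectin-1, stood at 422, 346 and 477 CPM with IL-4, against 21.9, 26.2 and 23.0 CPM in controls (log2 fold change 4.24 ± 0.69, adjusted p = 0.000486). Pdcd1lg2, the checkpoint ligand PD-L2, stood at 18.2, 14.2 and 14.4 CPM with IL-4, against 0.143, 0.197 and 0 CPM in controls (log2 fold change 6.91 ± 0.59, adjusted p = 7.23e-06). Among these 4 genes the fold was largest for Mgl2 and smallest for Clec10a. Of the RNase genes, Rnase2a had 1205, 954 and 796 CPM with IL-4 and 2 counts in all controls, a ratio of 17790 (95% counting interval 4924 to 146900). Ear2, also on chromosome 14, rose by 7.17 ± 0.60 on the log2 scale. The RNase family has near-identical members, so the split between them is uncertain. Flt1, the VEGF receptor 1, rose by 7.84 ± 0.65 on the log2 scale and the kinase Matk by 4.31 ± 0.36.

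Some textbook M2 genes did not pass or fell. The mannose receptor Mrc1, the standard surface marker CD206, stood at 2839, 2898 and 3086 CPM with IL-4, against 2447, 1793 and 2173 CPM in controls, and did not pass (log2 fold change 0.58 ± 0.57, adjusted p = 0.499; adjusted p = 0.00345 in the fit of the 6 libraries alone). The hemoglobin receptor Cd163 did not pass either (log2 fold change -0.28 ± 0.42). Il10, the anti-inflammatory cytokine often listed with M2 cells, fell (log2 fold change -2.07 ± 0.56, adjusted p = 0.0141, but adjusted p = 0.0537 without IL-4 library 2), and so did the scavenger receptor Msr1 (-0.71 ± 0.19, adjusted p = 0.0135, but adjusted p = 0.0571 without IL-4 library 2). Of the 22 arginine, polyamine and nitric oxide genes, 4 rose and 1 fell, beside 14.9% and 12.0% of all genes. The counts were 6 and 2 with the 6 libraries alone, 9 and 5 with the replicate block in those, 5 and 2 without the pair that stood apart and 5 and 3 without heme-albumin 200 library 2 as well. The arginine carrier Slc7a2 rose beside Arg1, with 307, 139.9 and 138 CPM with IL-4, against 1.79, 1.11 and 0.949 CPM in controls (log2 fold change 7.31 ± 0.38, adjusted p = 6.37e-08), whereas ornithine decarboxylase Odc1, the next step toward polyamines, did not pass (-0.30 ± 0.16, adjusted p = 0.188). Nos2, the nitric oxide synthase that competes for arginine, had 2 counts with IL-4 and 12 in controls, and did not pass (adjusted p = 0.414).

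Many of the largest fitted rises were in genes with few or no counts in untreated macrophages. Of the 1742 genes that rose to at least 1 CPM with no overlap, 56 had at most 3 counts over all 3 controls. Msx3, a homeobox gene, had 114, 109.8 and 112 CPM with IL-4 and no control count, at least 1401-fold higher. Cldn11, a claudin of tight junctions, had 79.2, 102 and 83.2 CPM with IL-4 and no control count, at least 1099-fold higher. The 3 IL-4 libraries lay within 2-fold of each other for both genes. On the same terms the bound was 922-fold for the alpha-tubulin Tuba8, 526-fold for the sodium channel Scn3a, 357-fold for the potassium channel Kcnd3 and 198-fold for the kinase Dclk1. It was 161-fold for Bex1, 154-fold for the retinol carrier Rbp4 (adjusted p = 0.000921, but adjusted p = 0.108 with DESeq2) and 110.4-fold for the cytokine receptor Il31ra. In the IFN-γ libraries Msx3 averaged 0.0406 ± 0.0704 CPM and Cldn11 had no count. In the heme-albumin 400 libraries Msx3 had no count and Cldn11 averaged 0.0253 ± 0.0438 CPM. Fn1, the matrix protein fibronectin, stood at 713, 134 and 226 CPM with IL-4, against 0.430, 0.393 and 0.119 CPM in controls (log2 fold change 10.10 ± 0.85, adjusted p = 2.14e-06). IL-4 library 1 was well above the other two for Fn1.

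By smallest p, the rises were led, beside Arg1, Rnase2a, Slc7a2 and Cldn11, by Cdh1, Smap2, Ablim1, Abcd2, Cblb and Il1rl2. Ablim1, an actin-binding protein, stood at 63.8, 56.4 and 34.7 CPM with IL-4, against 0.143, 0.197 and 0 CPM in controls (log2 fold change 8.62 ± 0.43, adjusted p = 5.34e-08). Il1rl2, the receptor for IL-36, stood at 59.5, 52.8 and 50.8 CPM with IL-4, against 0.861, 0.393 and 1.19 CPM in controls (log2 fold change 6.26 ± 0.35, adjusted p = 9.43e-08). The ARF regulator Smap2 (log2 fold change 2.01 ± 0.08), the peroxisomal fatty acid transporter Abcd2 (2.20 ± 0.12) and the ubiquitin ligase Cblb (2.40 ± 0.13) had smaller changes but little spread.

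Several genes of cell fusion and bone-resorbing giant cells rose. IL-4 is known to make macrophages fuse into multinucleated cells. Of the fusion and osteoclast genes, 10 of 21 tested members rose and 2 fell (median 0.76), counts that became 13 and 5 with the 6 libraries and the replicate block. Cdh1, E-cadherin, which IL-4 is known to raise before fusion, stood at 46.4, 42.6 and 33.9 CPM in the 3 IL-4 libraries, against 0.143, 0.262 and 0.119 CPM in the 3 controls (log2 fold change 7.83 ± 0.31, adjusted p = 5.45e-09). The fusion protein Dcstamp stood at 25.7, 10.1 and 15.6 CPM with IL-4, against 2.44, 2.95 and 2.14 CPM in controls (log2 fold change 2.86 ± 0.47, adjusted p = 0.000509). Its relative Ocstamp had 58.9, 20.4 and 27.1 CPM with IL-4 and 2 counts in controls, a ratio of 624 (95% counting interval 173 to 5158). IL-4 library 1 was the highest of the 3 for Ocstamp and Dcstamp. Atp6v0d2, the proton pump subunit of fusing macrophages (log2 fold change 5.48 ± 0.66), the acid phosphatase Acp5 (4.08 ± 0.46), the integrin Itgb3 (4.01 ± 0.27) and the protease cathepsin K, Ctsk (3.67 ± 0.80), also rose. The RANKL receptor Tnfrsf11a fell (log2 fold change -0.83 ± 0.15, adjusted p = 0.00102), and Nfatc1, the master factor of osteoclasts, did not pass (-0.02 ± 0.12).

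Of the lysosome and V-ATPase genes, 14 of 26 tested members rose and 0 fell (median 0.43), counts that became 22 and 1 with the 6 libraries and the replicate block, 9 and 0 without IL-4 library 2, control library 1 or control library 2 and 8 and 0 without IL-4 library 3. Tfeb, the factor that drives lysosome genes, rose, with 54.6, 66.8 and 55.0 CPM with IL-4, against 15.3, 16.2 and 18.2 CPM in controls (log2 fold change 1.94 ± 0.29, adjusted p = 0.000258). The proteases Ctsl (log2 fold change 1.15 ± 0.14) and Ctsz (1.12 ± 0.19) and the pump subunit Atp6v1b2 (1.04 ± 0.15) rose about 2-fold.

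The receptor of iron uptake rose and the iron exporter fell. The transferrin receptor Tfrc stood at 4315, 2738 and 4112 CPM in the 3 IL-4 libraries, against 288, 174 and 266 CPM in the 3 controls (log2 fold change 4.06 ± 0.27, adjusted p = 3.69e-07). The iron exporter Slc40a1, ferroportin, stood at 79.8, 37.0 and 79.8 CPM with IL-4, against 269, 125 and 322 CPM in controls (log2 fold change -1.74 ± 0.40, adjusted p = 0.00511). Aco1, the iron-sensing aconitase that binds the messages of both genes, rose by 0.81 ± 0.11 on the log2 scale (adjusted p = 0.000108). Hmox1, which breaks down heme, did not pass (log2 fold change -0.14 ± 0.25, adjusted p = 0.719). Of the 18 heme, iron and NRF2 genes 3 rose and 1 fell, beside 14.9% and 12.0% of all genes. With the 6 libraries alone 17 were tested, of which 7 rose and 2 fell, or 8 and 4 with the replicate block. Of all 11442 genes tested, these settings called 2634 higher and 2515 lower, and 3303 and 3249 with the block. Without the pair that stood apart the list's counts were 5 and 2.

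MHC class II genes, which present peptides to CD4 T cells, rose. Of the class II genes, 8 of 12 tested members rose and 0 fell (median 2.05), counts that became 8 and 2 without the pair that stood apart. Ciita, the factor that switches class II genes on, stood at 22.8, 17.6 and 15.1 CPM with IL-4, against 0.646, 0.984 and 0.949 CPM in controls (log2 fold change 4.53 ± 0.33, adjusted p = 6.78e-07). The invariant chain Cd74 stood at 1251, 1150 and 1005 CPM in the 3 IL-4 libraries, against 93.5, 81.2 and 59.7 CPM in the 3 controls (log2 fold change 3.97 ± 0.32, adjusted p = 1.66e-06). The chains H2-Ab1 (log2 fold change 3.77 ± 0.40), H2-Aa (3.25 ± 0.36) and H2-Eb1 (2.90 ± 0.34) and the peptide loaders H2-DMa (2.52 ± 0.20) and H2-DMb1 (1.57 ± 0.12) rose with it. H2-Oa, an inhibitor of loading, had 1 count with IL-4 and 10 in controls, and did not pass (adjusted p = 0.128), although it did with DESeq2 (0.0267) and without the pair that stood apart (0.0333). Of the costimulatory and checkpoint ligands, 5 of 19 tested members rose and 6 fell (median -0.46), counts that became 6 and 10 with the 6 libraries alone, 5 and 10 with the replicate block, 8 and 11 with the 6 libraries and the replicate block and 6 and 10 without the pair that stood apart. The checkpoint ligand Cd274, PD-L1, rose (log2 fold change 1.85 ± 0.45), as did Cd80 (1.01 ± 0.09, adjusted p = 3.36e-06) and Cd83 (1.55 ± 0.29), while the ICOS ligand Icosl (-2.33 ± 0.38), the 4-1BB ligand Tnfsf9 (-1.70 ± 0.26) and the galectin Lgals9 (141 ± 12.4 CPM with IL-4 and 305 ± 10.6 CPM in controls, adjusted p = 1.78e-05) fell.

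The chemokines Ccl24, Ccl22 and Ccl8 rose, and Cxcl1, Cxcl2, Ccl3, Ccl4 and Cxcl16 fell. Of the CC and CXC chemokines, 5 of 23 tested members rose and 8 fell (median -0.97). With a filter of 5 CPM in 3 libraries 16 were tested, of which 3 rose and 6 fell. With the 6 libraries alone 19 were tested, of which 9 rose and 9 fell, or 9 and 10 with the replicate block. Without the pair that stood apart the counts were 9 and 10. Ccl24, an attractant of eosinophils, stood at 28.4, 5.22 and 10.0 CPM with IL-4, against 0.215, 0.262 and 0.119 CPM in controls (log2 fold change 6.15 ± 0.67, adjusted p = 1.83e-05). Ccl22, an attractant of regulatory and Th2 cells, rose by 4.94 ± 0.91 on the log2 scale (adjusted p = 0.00125). Ccl8, a ligand of CCR8 and related receptors in mice, rose, with 9.97, 23.3 and 40.9 CPM with IL-4, against 0, 0.656 and 0.237 CPM in controls (log2 fold change 6.37 ± 0.74, adjusted p = 7.02e-05). IL-4 library 1 was highest for Ccl24 and lowest for Ccl8. Ccl17 and Ccl11, which also draw Th2 cells and eosinophils, had 2 and 3 counts in all with IL-4 and 0 in controls, too few to be tested. On the other side, the neutrophil attractants Cxcl2 (log2 fold change -4.75 ± 0.67) and Cxcl1 (-4.15 ± 0.67), the inflammatory chemokines Ccl3 (-2.07 ± 0.25) and Ccl4 (-2.61 ± 0.25) and the scavenger-chemokine Cxcl16 (-3.92 ± 0.52) fell. The monocyte attractants Ccl2 (log2 fold change 1.23 ± 0.68, adjusted p = 0.209) and Ccl7 (1.70 ± 0.90, adjusted p = 0.193) did not pass, but had adjusted p = 2.55e-05 and 3.08e-05 in the fit of the 6 libraries alone.

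Several receptors for chemoattractants and microbial products fell. Of the chemokine and chemoattractant receptors, 4 of 17 tested members rose and 5 fell, which became 5 and 8 with the 6 libraries alone, 6 and 9 with the 6 libraries and the replicate block, 5 and 8 without the pair that stood apart and 2 and 5 without control library 1. Cx3cr1, the fractalkine receptor, stood at 0.251, 0.109 and 0.420 CPM with IL-4, against 28.6, 42.8 and 22.3 CPM in controls (log2 fold change -6.65 ± 0.55, adjusted p = 1.86e-06). The formyl peptide receptor Fpr2 stood at 0.188, 0.0544 and 0.105 CPM with IL-4, against 11.3, 10.6 and 9.97 CPM in controls (log2 fold change -6.35 ± 1.05, adjusted p = 0.000545). The complement receptor C5ar1 fell by 1.86 ± 0.34 on the log2 scale, and the nucleotide receptors P2ry1 (2.59 ± 0.30) and P2ry14 (1.71 ± 0.32) rose. Of the Toll-like receptor and inflammasome genes, 4 of 26 rose and 12 fell (median -0.27). Tlr2, the receptor for bacterial lipoproteins, stood at 8.47, 9.79 and 9.30 CPM in the 3 IL-4 libraries, against 221, 152 and 204 CPM in the 3 controls (log2 fold change -4.27 ± 0.40, adjusted p = 4.79e-06). Nlrp3, the inflammasome sensor, stood at 25.1, 34.1 and 30.5 CPM with IL-4, against 146, 137 and 149 CPM in controls (log2 fold change -2.15 ± 0.13, adjusted p = 1.23e-07). Tlr5 (log2 fold change -4.07 ± 0.48), Tlr9 (-2.21 ± 0.29) and the LPS co-receptor Cd14 (-2.80 ± 0.57) fell as well, whereas Tlr4 (0.64 ± 0.14, adjusted p = 0.00442) and Tlr8 (0.91 ± 0.18) rose.

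Of the cytokines, 2 of 19 tested members rose and 9 fell (median -0.99), counts that became 4 and 11 with the 6 libraries and the replicate block. Tnf, the lead inflammatory cytokine, stood at 9.22, 9.30 and 9.93 CPM in the 3 IL-4 libraries, against 145, 125 and 134 CPM in the 3 controls (log2 fold change -3.71 ± 0.13, adjusted p = 3.71e-09). Il18 (log2 fold change -1.55 ± 0.15) and the TNF-family ligand Tnfsf14 (-2.79 ± 0.50) fell, Tnfsf12 rose (1.24 ± 0.18), and Il1b did not pass (-2.41 ± 0.97, adjusted p = 0.0857, but 0.00998 with the replicate block). Among growth factors, 4 of 13 rose and 0 fell, which became 5 and 2 with the 6 libraries alone and 5 and 3 with the 6 libraries and the replicate block. Hbegf, a ligand of the EGF receptor, stood at 17.0, 10.8 and 16.9 CPM with IL-4, against 0.359, 0.328 and 0.475 CPM in controls (log2 fold change 5.39 ± 0.39, adjusted p = 6.30e-07). Pdgfa (log2 fold change 2.77 ± 0.25) and Igf1 (1.11 ± 0.29) rose less.

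Members of the same surface receptor families moved in opposite directions. Of the C-type lectins, 7 of 16 tested members rose and 4 fell, which became 8 and 7 with the 6 libraries alone and 8 and 7 with the 6 libraries and the replicate block. Beside the rises of Mgl2, Clec10a and Clec7a, Clec4e, the mycobacterial cord-factor receptor Mincle, stood at 7.34, 14.2 and 10.7 CPM with IL-4, against 380.5, 289 and 254 CPM in controls (log2 fold change -4.72 ± 0.52, adjusted p = 2.11e-05), and Clec12a fell (-2.71 ± 0.20). Of the Fc gamma receptors, 2 of 6 rose and 2 fell. Fcgr1, the activating high-affinity IgG receptor, stood at 6.84, 9.46 and 9.03 CPM in the 3 IL-4 libraries, against 135, 206 and 123 CPM in the 3 controls (log2 fold change -4.08 ± 0.28, adjusted p = 3.82e-07). Fcgr2b, the inhibitory receptor, stood at 621, 709 and 723 CPM with IL-4, against 186, 153 and 215 CPM in controls (log2 fold change 2.01 ± 0.24, adjusted p = 4.42e-05). The groups were apart in both, in opposite directions. Of the scavenger and apoptotic cell receptors, 6 of 24 tested members rose and 5 fell, which became 8 and 9 with the 6 libraries alone, 8 and 13 with the 6 libraries and the replicate block and 5 and 3 without IL-4 library 2. Marco, the collagenous scavenger receptor, stood at 1.50, 0.489 and 1.22 CPM in the 3 IL-4 libraries, against 381, 83.9 and 186 CPM in the 3 controls (log2 fold change -7.52 ± 1.61, adjusted p = 0.00351), with controls spread over more than 4-fold. The lipid scavenger Cd36 rose (log2 fold change 1.61 ± 0.28, adjusted p = 0.000783), as did the bridge protein Mfge8 (2.03 ± 0.28) and the receptor kinase Tyro3 (2.56 ± 0.50).

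Nearly all listed interferon-stimulated genes fell. Untreated macrophages are known to make a little interferon beta, which keeps such genes on at a low level. Of 30 genes of the type I interferon response tested, 29 fell and 0 rose (median -2.54), against 12.0% of all genes, and Usp18 did not pass (log2 fold change -0.51 ± 0.30). Rsad2, the antiviral enzyme viperin, stood at 3.58, 4.79 and 3.25 CPM in the 3 IL-4 libraries, against 56.2, 94.9 and 62.8 CPM in the 3 controls (log2 fold change -4.10 ± 0.29, adjusted p = 5.45e-07). Ifit1, which binds viral RNA caps, stood at 1.44, 2.12 and 1.68 CPM with IL-4, against 25.0, 42.8 and 30.1 CPM in controls (log2 fold change -4.11 ± 0.37, adjusted p = 3.73e-06). Isg15, the ubiquitin-like modifier, stood at 3.64, 6.58 and 4.83 CPM with IL-4, against 31.0, 49.8 and 29.4 CPM in controls (log2 fold change -2.76 ± 0.24, adjusted p = 2.43e-06). In each, all 3 IL-4 libraries lay below all 3 controls. Irf7, the factor that amplifies interferon, fell by 3.47 ± 0.40 on the log2 scale, and the parts of its own signal chain, Stat2 (-1.25 ± 0.13) and Irf9 (-1.26 ± 0.13), fell less. The RNA sensors Ifih1 (log2 fold change -1.07 ± 0.14) and Dhx58 (-2.14 ± 0.11), Xaf1 (-2.59 ± 0.17), Trim30a (-1.77 ± 0.13) and Ifi44 (-5.34 ± 0.45) fell too. Ifit3b had 2 counts with IL-4 and 0, 0 and 0.0700 CPM there, against 3.73, 5.97 and 3.20 CPM in controls, a control to IL-4 ratio of 142 (95% counting interval 38.8 to 1183). Its adjusted p was 8.71e-07, though its reads cannot be told with certainty from those of Ifit3 (log2 fold change -4.89 ± 0.39).

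The promoters of Ifit1, Isg15 and Rsad2 are shown because they hold the direct repeat that the ISGF3 complex of these factors reads, GAAANNGAAA on either strand, in capitals (overlapping copies run together). The windows are as above: Ifit1 on the plus strand at chr19:34640639-34640938 with matches starting 104 and 85 bases before the start, Isg15 on the minus strand at chr4:156200769-156201068 (from 78 before) and Rsad2 on the minus strand at chr12:26456403-26456702 (120 before).
Ifit1: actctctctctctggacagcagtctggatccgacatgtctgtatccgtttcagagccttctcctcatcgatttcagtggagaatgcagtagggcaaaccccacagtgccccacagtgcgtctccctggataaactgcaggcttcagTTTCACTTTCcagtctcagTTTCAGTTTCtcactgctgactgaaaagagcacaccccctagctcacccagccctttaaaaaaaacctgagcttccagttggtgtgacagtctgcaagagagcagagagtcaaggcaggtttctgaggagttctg
Isg15: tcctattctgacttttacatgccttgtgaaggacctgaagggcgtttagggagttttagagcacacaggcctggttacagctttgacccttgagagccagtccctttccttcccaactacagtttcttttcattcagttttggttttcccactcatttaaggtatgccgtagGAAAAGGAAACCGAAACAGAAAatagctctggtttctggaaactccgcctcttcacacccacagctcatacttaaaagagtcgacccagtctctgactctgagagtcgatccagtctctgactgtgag
Rsad2: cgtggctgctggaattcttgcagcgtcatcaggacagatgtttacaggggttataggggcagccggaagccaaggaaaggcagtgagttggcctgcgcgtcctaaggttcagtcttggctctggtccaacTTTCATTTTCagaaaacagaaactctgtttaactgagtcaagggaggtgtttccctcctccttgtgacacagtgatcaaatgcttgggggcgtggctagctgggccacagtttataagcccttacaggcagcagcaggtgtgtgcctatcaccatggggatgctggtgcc

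This repeat was in 3.99% of the promoters of all genes and 4.12% of those of tested genes. It was in 8.54% for genes that fell and 14.6% for the 472 that fell by at least 2-fold with a promoter in the table, against 2.92% for genes that rose and 4.96% for the 544 that rose by at least 2-fold. Among 22 type I interferon response genes with a promoter, 13 (59.1%) held it. Of the alternative activation markers, 0 of 24 did.

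Of the genes induced by IFN-γ, 4 of 31 tested members rose and 17 fell (median -0.97). The chemokine Cxcl10 stood at 0.439, 0.979 and 0.245 CPM with IL-4, against 21.5, 27.7 and 15.4 CPM in controls (log2 fold change -5.25 ± 0.48, adjusted p = 4.38e-06). The guanylate-binding protein Gbp9 (log2 fold change -2.52 ± 0.22), the GTPase Iigp1 (-3.95 ± 0.48) and the class I activator Nlrc5 (-1.21 ± 0.13) fell, and members of these GTPase families have near-identical copies. The 4 that rose were Socs1, Ciita, Cd274 and the immunoproteasome subunit Psmb10 (log2 fold change 1.24 ± 0.20). The nuclear body protein Sp100 (log2 fold change -1.68 ± 0.11) and Phf11d (-2.17 ± 0.14), both outside the list and both known to respond to interferon, were among the falls of smallest p, with Traf3ip3 (-2.39 ± 0.14).

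**Figure D3:**
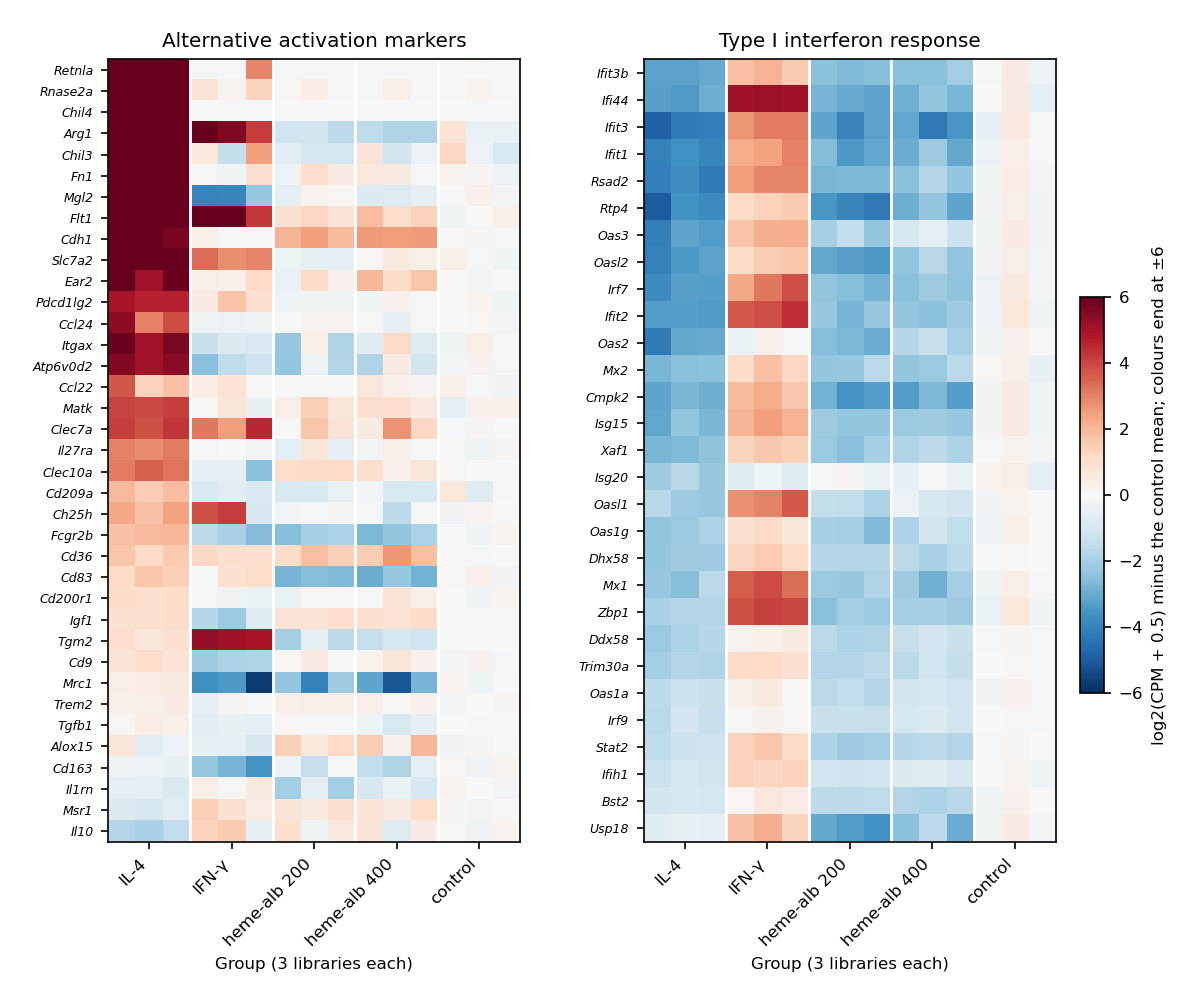
Each row is a gene and each column 1 of 15 libraries, in groups of 3 (IL-4, IFN-γ, heme-albumin 200 and 400 µM, control); colour is log2(CPM + 0.5) minus the mean of the controls, ending at ±6. The left panel holds the 37 tested alternative activation markers, of which 31 were higher with IL-4 than in control, and the right panel type I interferon response genes, of which each one drawn except Usp18 was lower with IL-4 than in control.

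Genes of energy metabolism mostly had small changes. Of the fatty acid oxidation genes, 11 of 22 tested members rose and 0 fell (median 0.24), counts that became 7 and 0 without IL-4 library 1, IL-4 library 3, control library 2 or control library 3. The largest of these rises were those of the short-chain dehydrogenase Acads (log2 fold change 0.94 ± 0.17, adjusted p = 0.000975), the thiolase Acaa2 (0.61 ± 0.12) and the electron carrier Etfb (0.61 ± 0.10). Of the respiratory chain subunits, 17 of 40 tested members rose and 1 fell (median 0.24), counts that became 29 and 1 with the 6 libraries and the replicate block, 10 and 1 without IL-4 library 1, 11 and 0 without IL-4 library 2, 10 and 0 without IL-4 library 3, 8 and 0 without control library 1 and 6 and 1 without control library 3. The complex III subunits Uqcrq (log2 fold change 1.07 ± 0.19, adjusted p = 0.000864) and Uqcrc1 (0.59 ± 0.11) led them. Of the TCA cycle genes, 6 of 25 tested members rose and 1 fell, which became 10 and 2 with the 6 libraries alone, 12 and 2 with the 6 libraries and the replicate block, 10 and 2 without the pair that stood apart, 2 and 1 without IL-4 library 1, control library 2 or control library 3, 1 and 1 without IL-4 library 3 and 3 and 1 without control library 1. The fall was Acod1, the enzyme that draws aconitate off to itaconate, which stood at 2.13, 3.43 and 3.22 CPM in the 3 IL-4 libraries, against 149, 127 and 108 CPM in the 3 controls (log2 fold change -5.32 ± 0.49, adjusted p = 4.54e-06). Of the glycolysis genes, 2 of 21 tested members rose and 5 fell, which became 3 and 9 with the 6 libraries alone, 4 and 12 with the 6 libraries and the replicate block and 3 and 9 without the pair that stood apart. Aldoc (log2 fold change -2.33 ± 0.42), the brake on pyruvate use Pdk1 (-1.29 ± 0.23), the glucose carrier Slc2a3 (-1.02 ± 0.21) and Pgk1 (-1.01 ± 0.18) fell, and Hk3 (0.82 ± 0.11) and Pfkfb4 (0.90 ± 0.14) rose.

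A few genes of lipid uptake and lipolysis rose. Of that list, 7 of 21 tested members rose and 1 fell, which became 11 and 3 with the 6 libraries alone, 11 and 4 with the 6 libraries and the replicate block and 10 and 3 without the pair that stood apart. The monoacylglycerol lipase Mgll stood at 19.8, 5.17 and 12.7 CPM with IL-4, against 1.22, 1.31 and 1.30 CPM in controls (log2 fold change 3.40 ± 0.59, adjusted p = 0.00079), and the triglyceride lipase Pnpla2 (0.94 ± 0.20) and the droplet coat Plin3 (0.75 ± 0.12) rose. Of the LXR targets, 2 of 14 rose and 3 fell (of all genes, 14.9% and 12.0%), counts that became 7 and 5 with the 6 libraries alone, 7 and 5 with the 6 libraries and the replicate block and 4 and 4 without the pair that stood apart. The cholesterol exporter Abcg1 rose (log2 fold change 1.97 ± 0.32, adjusted p = 0.000457), while its relative Abca1 (-1.36 ± 0.28, adjusted p = 0.00278) and the apolipoprotein Apoc2 (-3.31 ± 0.59) fell. Of 24 cholesterol synthesis genes 0 rose and 1 fell, with a median of -0.30, which became 2 and 12 with the 6 libraries alone, 3 and 13 with the 6 libraries and the replicate block and 1 and 5 without the pair that stood apart. Among eicosanoid genes, 7 of 19 tested members rose and 4 fell, which became 7 and 9 with the 6 libraries alone, 7 and 10 with the 6 libraries and the replicate block and 7 and 8 without the pair that stood apart. Ptgs1, the constitutive cyclooxygenase, stood at 144, 152 and 168 CPM with IL-4, against 36.5, 30.3 and 44.0 CPM in controls (log2 fold change 2.19 ± 0.19, adjusted p = 3.21e-06), the epoxide hydrolase Ephx1 (2.17 ± 0.26) and the prostaglandin receptor Ptger2 (2.34 ± 0.38) rose, and Hpgd, which degrades prostaglandins, fell (-3.01 ± 0.46, adjusted p = 0.000317).

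Of the matrix, coagulation and protease genes, 14 of 25 tested members rose and 1 fell (median 1.35), counts that became 15 and 4 with the 6 libraries alone, 14 and 3 with the replicate block, 15 and 5 with the 6 libraries and the replicate block and 15 and 3 without the pair that stood apart. Coagulation factor F7 stood at 273, 263 and 162 CPM with IL-4, against 3.23, 6.16 and 0.949 CPM in controls (log2 fold change 6.08 ± 0.53, adjusted p = 3.02e-06), and its neighbour on chromosome 8, F10, rose by 5.13 ± 0.72 on the log2 scale. Tissue factor F3 (log2 fold change 4.01 ± 0.64), the elastase Mmp12 (4.02 ± 0.96), its neighbour on chromosome 9, the collagenase Mmp13 (3.37 ± 0.47), the inhibitor Timp1 (2.85 ± 0.39), Mmp19 (1.97 ± 0.13) and the urokinase receptor Plaur (1.86 ± 0.14) rose as well.

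**Figure D4:**
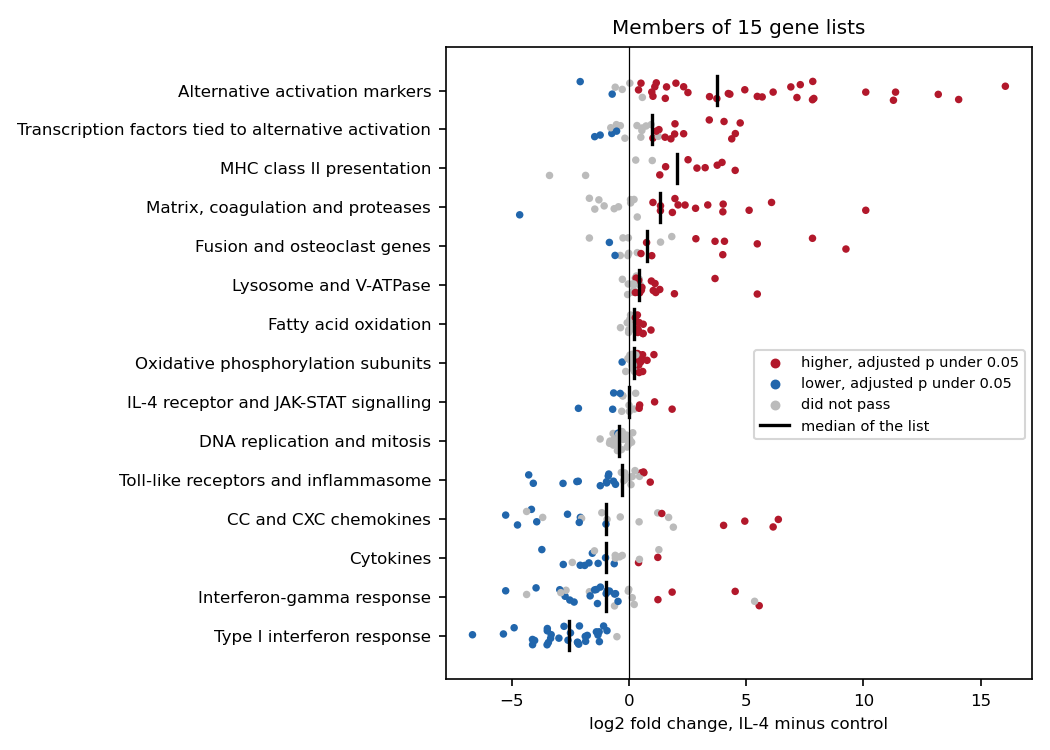
Each point is a tested member of 1 of 15 gene lists, at its log2 fold change, IL-4 minus control; red and blue points passed an adjusted p of 0.05, grey points did not, and the black bar is the list's median. Medians run from 3.75 for the alternative activation markers to -2.54 for the type I interferon response.

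The calls of cell cycle genes depended on which libraries entered the fit. Of 35 genes of DNA replication and mitosis, 0 rose and 1 fell (median -0.43), counts that became 0 and 25 with the 6 libraries alone, 0 and 28 with the 6 libraries and the replicate block and 0 and 10 without the pair that stood apart. The member that fell was the inhibitor Cdkn1b (log2 fold change -0.46 ± 0.13, adjusted p = 0.0208, but adjusted p = 0.0846 without IL-4 library 1, 0.0811 without IL-4 library 3 and 0.0861 without control library 2). The cyclin Ccnd1 averaged 544 ± 55.2 CPM with IL-4 and 1026 ± 75.1 CPM in controls, and the proliferation marker Mki67 191 ± 60.4 CPM with IL-4 and 316 ± 83.6 CPM in controls. Neither passed (adjusted p = 0.271 and 0.514), but with the 6 libraries alone both did (0.000192 for Ccnd1 and 0.0463 for Mki67), and Ccnd1 did without the pair that stood apart (0.00119). Of the ribosome biogenesis genes, 5 of 23 tested members rose and 0 fell, which became 8 and 0 with the 6 libraries alone, 12 and 0 with the 6 libraries and the replicate block and 3 and 0 without IL-4 library 1, control library 2 or control library 3. Rrs1 (log2 fold change 0.98 ± 0.12) and Rrp9 (0.75 ± 0.14), both needed to assemble ribosomes, rose.

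The cultures carried macrophage genes in both groups. Of the core macrophage genes, 3 of 16 tested members rose and 6 fell, which became 5 and 8 with the 6 libraries alone and 5 and 9 with the 6 libraries and the replicate block. The M-CSF receptor Csf1r averaged 1103 ± 98.8 CPM with IL-4 and 1692 ± 145 CPM in controls, and Adgre1, the F4/80 antigen, 1029 ± 153 CPM with IL-4 and 1513 ± 66.0 CPM in controls. Neither passed, but both did in the fit of the 6 libraries alone (adjusted p = 0.00302 and 0.0103). The galactose-binding Lgals3 rose (log2 fold change 1.57 ± 0.27), and Aif1 (-3.77 ± 0.48), the pore protein Mpeg1 (-1.39 ± 0.19) and lysozyme Lyz2 (-1.34 ± 0.31) fell. Summed over the core list, the level ran from 26730 to 33450 CPM with IL-4 and from 46180 to 52730 CPM in controls.

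Markers of other cell types were summed in each library. Of 14 T and NK cell markers 10 had no count in the 6 libraries, Cd3e, Cd3d, Cd3g, Cd8a and Trac among them, while 3 were tested: Cd2 rose, with 100 counts with IL-4 and 2 in controls and an adjusted p of 0.000141, Cd4 fell (log2 fold change -2.38 ± 0.51) and Il7r rose (1.64 ± 0.55, adjusted p = 0.0395, but adjusted p = 0.0708 to 0.125 when any 1 of the 6 libraries was left out). Summed, this list ran from 170.9 to 190.8 CPM with IL-4 and from 58.5 to 82.6 CPM in controls. Il7r made up most of the IL-4 sum, as Cd2 averaged 1.65 CPM there and Cd4 fell. The remaining marker, Klrb1c, had 2, 3 and 7 counts in the IL-4 libraries. The dendritic cell list ran from 457.4 to 813.8 CPM with IL-4 and from 12.9 to 18.6 CPM in controls. There 4 of 5 tested markers rose, Itgax, Batf3, Zbtb46 and Cd209a, and 0 fell. With a filter of 5 CPM in 3 libraries only 3 were tested, of which 2 rose and 0 fell. Without IL-4 library 3 or control library 2 the counts were 2 and 0 of 5, as Zbtb46 and Cd209a lost their calls. Itgax, the integrin CD11c, stood at 790.4, 439.9 and 660.5 CPM with IL-4, against 10.6, 17.1 and 11.9 CPM in controls (log2 fold change 5.68 ± 0.73, adjusted p = 7.47e-05) and made up most of that sum, and Clec9a had 1 count in each group. Itgax and Batf3 are also in the lists above, and the part of dendritic cells in any result was not tested. The neutrophil list ran from 108.2 to 115.5 CPM with IL-4 and from 144.8 to 173.9 CPM in controls, with 0 of 7 tested markers changed. B cell markers ran from 135.3 to 178.4 CPM with IL-4 and from 234.4 to 255.3 CPM in controls, with Pax5 and Ebf1 without a count and 1 of 2 tested markers lower. Megakaryocyte and platelet markers ran from 85.9 to 113.3 CPM with IL-4 and from 141.1 to 276.2 CPM in controls, and 1 of 3 tested members fell. Stromal and endothelial markers ran from 17.3 to 30.8 CPM with IL-4 and from 17.4 to 28.1 CPM in controls, and 2 of 5 tested members rose and 1 fell. Mast cell, basophil and eosinophil markers ran from 4.30 to 11.0 CPM with IL-4 and from 8.54 to 9.90 CPM in controls, and 1 of 2 tested members rose. The part of these cells in any result was not tested. Erythroid markers stayed under 0.4 CPM in both groups.

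Among the largest falls were genes outside these groups. Ly6a, the surface antigen Sca-1, stood at 0.314, 0.489 and 0.315 CPM with IL-4, against 15.1, 87.3 and 24.7 CPM in controls (log2 fold change -6.72 ± 0.68, adjusted p = 9.43e-06). Gpr84, a receptor for medium-chain fatty acids, stood at 0.753, 0.326 and 1.36 CPM with IL-4, against 115, 64.0 and 87.7 CPM in controls (log2 fold change -6.53 ± 0.72, adjusted p = 1.96e-05). Saa3, the acute-phase serum amyloid of macrophages, stood at 0.188, 0.653 and 0.804 CPM with IL-4, against 56.9, 43.6 and 42.2 CPM in controls (log2 fold change -6.20 ± 1.31, adjusted p = 0.00329). In all 3 genes every IL-4 library was under 2 CPM and every control over 15 CPM. The integrin Itga8 (log2 fold change -5.86 ± 0.80), the synphilin Sncaip (-6.11 ± 0.51), the NADPH oxidase Nox1 (-5.73 ± 0.64), the sialic acid hydroxylase Cmah (-5.32 ± 0.67) and the zinc importer Slc39a4 (-5.30 ± 0.78) fell to below 0.5 CPM with IL-4. The formyl peptide receptor Fpr1 fell too (log2 fold change -5.37 ± 1.53, adjusted p = 0.0192, but adjusted p = 0.0506 without IL-4 library 1, 0.0625 without IL-4 library 2 and 0.0649 without IL-4 library 3).

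The IL-4 libraries were also set directly against those of IFN-γ, the cytokine of the M1 state, in which class II and interferon genes are known to be high. Of all genes, 2892 (24.3%) were higher with IL-4 than with IFN-γ and 3122 (26.3%) lower, 50.6% in either direction. Without IFN-γ library 3 and heme-albumin 400 library 2, 3077 were higher and 3257 lower. Of the alternative activation markers, 27 of 37 were higher and 4 lower with IL-4 (median log2 difference, IL-4 minus IFN-γ, 3.72). Arg1 averaged 3625 ± 571 CPM with IL-4 and 86.0 ± 55.8 CPM with IFN-γ (log2 difference 5.36 ± 0.46, adjusted p = 5.13e-07). Flt1 averaged 81.5 ± 9.70 CPM with IL-4 and 66.0 ± 44.3 CPM with IFN-γ and did not pass (log2 fold change 0.27 ± 0.40, adjusted p = 0.595). The class II genes were lower with IL-4 than with IFN-γ: of these, 0 of 12 were higher and 10 lower (median -3.34), and Cd74 averaged 1136 ± 124 CPM with IL-4 and 8591 ± 2327 CPM with IFN-γ (log2 fold change -3.02 ± 0.31, adjusted p = 2.94e-06). Of the type I interferon genes, 0 of 30 were higher and 30 lower with IL-4 (median -4.98), and of the IFN-γ response genes, 0 of 31 were higher and 30 lower (median -6.13). Of the cholesterol synthesis genes, 24 of 24 were higher and 0 lower with IL-4 than with IFN-γ (median 1.87). Of the glycolysis genes, 1 of 21 were higher and 16 lower (median -1.09). Il4ra averaged 61.6 ± 9.47 CPM with IL-4 and 296 ± 15.8 CPM with IFN-γ (log2 fold change -2.34 ± 0.16, adjusted p = 5.26e-08).

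Against heme-albumin at 400 µM, which stands for the uptake of red cells that the series title calls anti-inflammatory, 2346 genes (19.7%) were higher with IL-4 and 2431 (20.5%) lower, 40.2% in either direction, and 2272 and 2576 without the same pair. Of the alternative activation markers, 28 of 37 were higher and 3 lower with IL-4 (median 3.53). Arg1 averaged 3625 ± 571 CPM with IL-4 and 0.0366 ± 0.0634 CPM with heme-albumin 400, and Chil3 averaged 5610 ± 2167 and 1.75 ± 1.48 CPM. Retnla averaged 2235 ± 788 CPM with IL-4 and had no count with heme-albumin 400. Of the heme, iron and NRF2 genes, 2 of 18 were higher and 13 lower with IL-4 (median -1.80). Tfrc averaged 3722 ± 858 CPM with IL-4 and 20.8 ± 0.824 CPM with heme-albumin 400 (7.40 ± 0.32, adjusted p = 4.87e-09), and Hmox1, the heme oxygenase, averaged 799 ± 133 CPM with IL-4 and 22570 ± 896 CPM with heme-albumin 400 (log2 fold change -4.91 ± 0.30, adjusted p = 6.61e-08). Of the type I interferon genes, 2 of 30 were higher and 19 lower with IL-4 (median -0.92). Rsad2 averaged 3.87 ± 0.809 CPM with IL-4 and 15.5 ± 4.99 CPM with heme-albumin 400 (log2 fold change -2.10 ± 0.29, adjusted p = 7.23e-05), both below the controls at 71.3 ± 20.7 CPM. Of the class II genes, 9 of 12 were higher and 0 lower with IL-4 (median 1.72), and Marco averaged 1.07 ± 0.524 CPM with IL-4 and 1210 ± 948 CPM with heme-albumin 400 (log2 fold change -10.17 ± 1.75, adjusted p = 0.000479). Without that pair, the log2 fold changes against IFN-γ were 4.99 for Arg1, -2.71 for Cd74, -2.26 for Il4ra and -0.18 for Flt1, which again did not pass, and those against heme-albumin 400 were 7.44 for Tfrc, -4.86 for Hmox1, -1.80 for Rsad2 and -10.70 for Marco. The alternative activation markers then had 29 of 37 higher and 5 lower with IL-4 than with IFN-γ, and 29 higher and 3 lower than with heme-albumin 400. The class II genes had 10 of 12 lower than with IFN-γ, and 9 higher and 2 lower than with heme-albumin 400. The heme, iron and NRF2 genes had 2 of 18 higher and 14 lower with IL-4 than with heme-albumin 400, and the type I interferon genes 2 of 30 higher and 16 lower. Against IFN-γ the type I interferon genes had 30 of 30 lower, the IFN-γ response genes 29 of 31 lower, the cholesterol synthesis genes 24 of 24 higher, and the glycolysis genes 1 of 21 higher and 18 lower. These direct comparisons share the IL-4 libraries with the comparison against control.

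**Figure D5:**
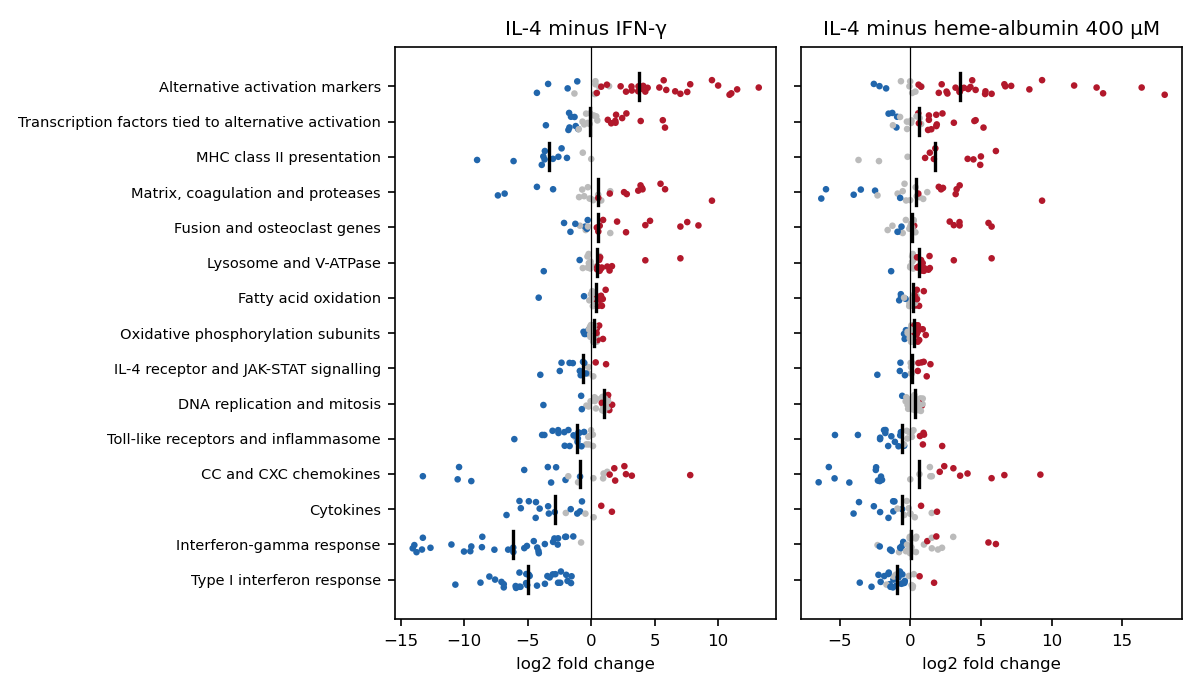
Members of the same 15 gene lists at their log2 fold change, IL-4 minus IFN-γ (left) and IL-4 minus heme-albumin 400 µM (right); red and blue points passed an adjusted p of 0.05 in that contrast, grey points did not, and the black bar is the median. The alternative activation markers have medians of 3.72 and 3.53, and the class II genes lie at -3.34 against IFN-γ and 1.72 against heme-albumin.

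By GRCm38 annotation, Acp5, Apoc2, Bcl6, Bex1, Bhlhe40, Bhlhe41, Ccnd1, Cd274, Cd74, Cebpa, Cebpb, Ciita, Cish, Csf1r, Ctsl, Ctsz, Cx3cr1, Cxcl10, Cxcl16, Dclk1, Dhx58, Ephx1, Etfb, Fcgr2b, Fn1, Fpr2, Gbp9, Gpr84, H2-DMa, H2-Oa, Hif1a, Hk3, Il1b, Il2rg, Il31ra, Il4ra, Irf7, Irf9, Irs2, Itga8, Jak1, Jak3, Jun, Kcnd3, Kdm6b, Maf, Mgll, Mmp12, Mmp19, Nlrc5, Nox1, Nr1h3, P2ry1, Pdgfa, Ptger2, Ptgs1, Ptpn6, Rrp9, Slc7a2, Sp100, Stat3, Stat5a, Stat6, Tnfsf12, Tnfsf9, Traf3ip3, Tuba8, Tyk2 and Usp18 overlap another gene, and since the labels do not say how strand was handled in counting, their counts are uncertain. The H2 genes, the Clec4a group and the ferritins have near-identical relatives and are uncertain in the same way.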

How the data were processed

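A stranded TruSeq kit was used for the 15 libraries, per the labels' protocols. The authors deposited 1 table of raw, unnormalized counts for every gene. The submitters' processing notes name the tools STAR 2.7.0e, SAMtools 1.9 and featureCounts, and GRCm38.p5 as the build. They give neither the annotation nor the strand setting of the counting, so overlapping or antisense genes, and near-identical copies, may share reads. The tag of the higher heme-albumin dose does not read the same in its 3 libraries, and the 400 µM of the titles and protocol was used.

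GENCODE M21 (GRCm38) gave symbols and positions for 25664 of the 25700 gene identifiers. Library totals lay between 8427352 and 28587416 counts, which leaves few counts behind a level near 1 CPM. With edgeR 4.0.16 (R 4.3.3, limma 3.58.1), filterByExpr kept 11883 genes, TMM gave factors between 0.886 and 1.122, and the quasi-likelihood model had 1 mean for each group and used all 15 libraries. Adjusted p-values are Benjamini-Hochberg over the tested genes of a comparison, called at 0.05. The SE is the size of the fold change divided by the root of its F statistic. Printed CPM carry no TMM factor, and folds do. IL-4 was set against control, IFN-γ and heme-albumin 400. Members of gene lists were counted, and no list was tested.

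The comparisons, the gene lists and the rule for named genes were chosen with earlier results of these data known. That rule took the 15 largest rises and the 15 largest falls (passed, at least 1 CPM on average, no overlap between groups), the 10 smallest p in each direction, and the 5 smallest p of each list described. Other members were named for their role, with their values in view. Some list genes are not reported here.

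Each replicate number goes with 1 of 3 dates in the column names, the same in every group, which pairs the samples by number, although what a date marks is not stated. Deviations from the group means correlated at 0.370, 0.380 and 0.224 between same-numbered IL-4 and control libraries and at -0.296 to -0.0597 between differently numbered ones. Such deviations cancel within a group, so positive values between same numbers bring negative ones between the others. Over all groups, same-numbered libraries correlated at -0.168 to 0.474 (median 0.144), with 19 of 30 pairs over 0.1.

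The results were recomputed with DESeq2 1.42.0, with its size factors or with upper-quartile factors in edgeR, without a filter, with genes held to 5 CPM in 3 libraries, with the 6 libraries alone, with a replicate block in either set of libraries, and with each library of the groups compared left out in turn. Leaving out the libraries that stood apart, the first pair or all 3, was chosen after seeing the data. In simulated IL-4 and control counts over 11883 genes, of which 200 were changed, the test found 13 of 50 genes at 1.5-fold, 31 of 50 at 2-fold, 46 of 50 at 4-fold and 48 of 50 at 8-fold, and 10 of its 148 calls (6.76%) were false. The simulated libraries were independent, with the same spread of a gene in each. They held no pairing and no library that stood apart, so these rates need not hold for the data. Promoters are RefSeq windows (GRCm38.p6). Matplotlib 3.10.9 in Python 3.11.15 drew the figures.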

Additional observations from a re-analysis of the deposited data

How the results depend on the processing

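The counts against control moved most when fewer libraries were fitted together, which also changed the genes kept and the scaling. Of 1766 higher and 1424 lower genes with all 15 libraries, the 6 compared alone gave 2634 and 2515, and 3303 and 3249 with the replicate block. Without IFN-γ library 3 and heme-albumin 400 library 2 the counts were 2398 and 2188, and 2504 and 2296 without heme-albumin 200 library 2 as well. The cause was not tested. Leaving out 1 of the 6 libraries gave 1180 to 1358 higher and 1014 to 1183 lower. With the other settings the counts lay between 1540 and 1901 higher and between 1289 and 1679 lower. Against IFN-γ and heme-albumin 400 every setting gave counts within 1.5 times the main ones, with 2399 to 3110 higher and 2732 to 3146 lower against IFN-γ, and 1869 to 2397 higher and 2018 to 2487 lower against heme-albumin 400, when 1 library was left out.

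Of 228 named genes, Zbtb46 and Cd209a not counted, 194 passed against control, and 10 of these lost their call under at least 1 setting. Of the named genes that did not pass, 19 did in the fit of the 6 libraries alone. With the replicate block over 15 libraries, Pik3cd lost its call, Il1b and Rxra gained one, and no other named gene changed its call.

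Log2 fold changes that turned sign belonged to genes that did not pass. Stat3 was at -0.000795 with DESeq2, -0.000858 with DESeq2 size factors and -0.000805 with upper-quartile factors, and between -0.0582 and 0.0899 with 1 library left out. Stat5b was at -0.0123, -0.0137 and -0.0132 with the same 3 settings, -0.000823 with the 6 libraries alone, -0.00346 with the replicate block in those, and between -0.0532 and 0.0546 with 1 library left out. With 1 library left out, Nfatc1 ran from -0.111 to 0.0533 and Prdm1 from -0.560 to 0.107. Against IFN-γ, Flt1 was at -0.176 without the first pair of these libraries, at -0.176 without all 3 and between -0.168 and 0.687 with 1 library left out. None of these 5 genes passed in the comparison named under any setting. Depth limits genes near 1 CPM, which rest on few counts in control library 3.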

Other observations

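The IL-4 libraries differed among themselves in a small group of the induced genes, chosen after their values were seen. Of the 1407 genes that rose and averaged at least 10 CPM with IL-4, the median ratio of SD to mean over the 3 IL-4 libraries was 7.36%. Of the 20 genes with the largest ratio, 19 were highest in IL-4 library 1, while over all 1407 rises library 1 was highest for 563, library 2 for 564 and library 3 for 280. Fn1, the matrix protein fibronectin, led them with 713, 133.5 and 226.5 CPM in IL-4 libraries 1 to 3 (SD 87.0% of the mean), against 0.430, 0.393 and 0.119 CPM in controls. The eosinophil chemokine Ccl24 had 28.4, 5.22 and 10.04 CPM with IL-4, against 0.215, 0.262 and 0.119 CPM in controls. Genes of cell fusion and giant cells were among the 20. Ocstamp, a membrane protein of fusing precursors, had 58.9, 20.4 and 27.1 CPM with IL-4, against 0, 0.0656 and 0.119 CPM in controls, and the acid phosphatase Acp5 had 47.8, 17.6 and 28.4 CPM with IL-4 and 1.79 to 2.37 CPM in controls. The chemokine Ccl8 was the exception, highest in IL-4 library 3, with 9.97, 23.3 and 40.9 CPM with IL-4 and 0, 0.656 and 0.237 CPM in controls. What set library 1 apart in these genes was not tested.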
